A study of Sus scrofa with 8 samples.

Results

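Transcripts of enzymes that handle arginine and make or break down polyamines were examined in the endometrium of pregnant gilts. The set was fixed by name as 10 genes, namely CPS1, ASS1, ARG1, ARG2, NOS3, ODC1, AMD1, SRM, SMS and SAT1, and every probeset named for one of them in the annotation of the array, or in the gene symbols of the study's supplementary list, was kept. This gave 12 of the 23999 non-control probesets on the array, for 9 of the 10 genes. AMD1 was named for no probeset and was not analysed here. All 12 names came from the annotation, and the supplementary list gave the same name to the 2 probesets it held, those of CPS1 and SAT1. Endometrium had been taken from 4 Meishan and 4 Yorkshire gilts on day 12 of gestation, each mated to boars of its own breed at an early estrus and used only when its conceptuses had elongated. Meishan is a prolific Chinese breed and Yorkshire a Western breed with smaller litters. Tissue came from all areas of the uterine lumen near the junction with the other horn, and each gilt was a separate animal hybridized to 1 Affymetrix Porcine Genome array. Because whole tissue was used, fewer cells of a type and less RNA per cell cannot be told apart in any of these values.

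Arginine is the branch point of these genes. CPS1 and ASS1 belong to the urea cycle, and ASS1 with its partner ASL also makes arginine in many tissues. Arginine is then used by nitric oxide synthases such as NOS3, the endothelial form, or is split by the arginases ARG1, of the cytosol, and ARG2, of mitochondria, to give ornithine. ODC1 turns ornithine into the polyamine putrescine, and SRM and SMS extend it to spermidine and spermine with aminopropyl groups that AMD1 prepares from S-adenosylmethionine. SAT1 acetylates spermidine and spermine, which marks them for export or breakdown. Polyamines and nitric oxide are known to support growth of the conceptus and blood flow to the uterus in early pregnancy.

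The authors' signals are linear intensities that had been brought to one scale, since on each array the mean came to 500.1 once the top and bottom 2% of probesets were left out. Signals below are centred signals, which are the deposited values with each array set to a common median. Precision is limited by the number of arrays, and a signal of 64 stands in for detection calls. Values listed for a breed are in the order of its gilts, 1 to 4. All 5 epithelial markers measured and 4 endometrial markers, among them the progesterone receptor PGR and ACP5, the iron protein uteroferrin, reached this level in all 8 gilts. Hybridization spike-ins, which contain no pig RNA, lay 1.00 higher on the log2 scale on the Meishan arrays (11.78 to 12.54, against 10.73 to 11.23 on the Yorkshire arrays). Probesets also leaned to a breed by their brightness, with a median log2 difference of 0.46 toward Meishan in the dimmest of 10 equal groups by signal and of 0.11 toward Yorkshire in the brightest but one. Of the trophoblast markers, TFAP2C lay between 2.50 and 20.3 in Meishan and between 26.2 and 71.1 in Yorkshire gilts. The summed signal of all 3 measured, with GATA3 and IFNG, was 58.0 to 988 in the Meishan gilts and 210 to 6513 in the Yorkshire gilts. The highest of these sums came mainly from IFNG. It read 14.2, 904, 304 and 114 in the Meishan gilts and 4604, 221, 6286 and 33.5 in the Yorkshire gilts. IFNG thus overlapped between the breeds, as did GATA3 (41.4 to 112 in Meishan and 106 to 172 in Yorkshire). The part of these differences in the results below was not tested, other than by the scaling alternatives given beside them.

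CPS1 was the 1 member that differed between the breeds in the test, and it was more abundant in Meishan endometrium. The breeds were compared by limma, p-values were adjusted by Benjamini-Hochberg over the whole array, and probesets with an adjusted p below 0.1 were called. The share of all probesets called was 0.908%, with 0.404% higher in Meishan and 0.504% higher in Yorkshire. For 2 of the 12 member probesets, those of CPS1 and SAT1, the breeds had no overlap, as was so for 10.1% of all probesets. These were also the 2 with an unadjusted p under 0.05, both higher in Meishan, beside 14.8% of all probesets (7.79% higher in Meishan and 6.96% higher in Yorkshire). A count of 2 in 12 lies near these last shares of the whole array, and the 1 call is a single gene. In all, 4 member probesets lay toward Meishan and 8 toward Yorkshire, with a median log2 difference (Meishan minus Yorkshire) of -0.069, against 0.021 over the array, where 51.7% of probesets lay toward Meishan. The median size of the difference, whatever its direction, was 0.23 for the members and 0.34 for the array. By level, 7 of the 9 measured genes had a probeset at a signal of 64 or more in at least 2 gilts of each breed, CPS1 and ARG1 being the exceptions.

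**Figure D1:**
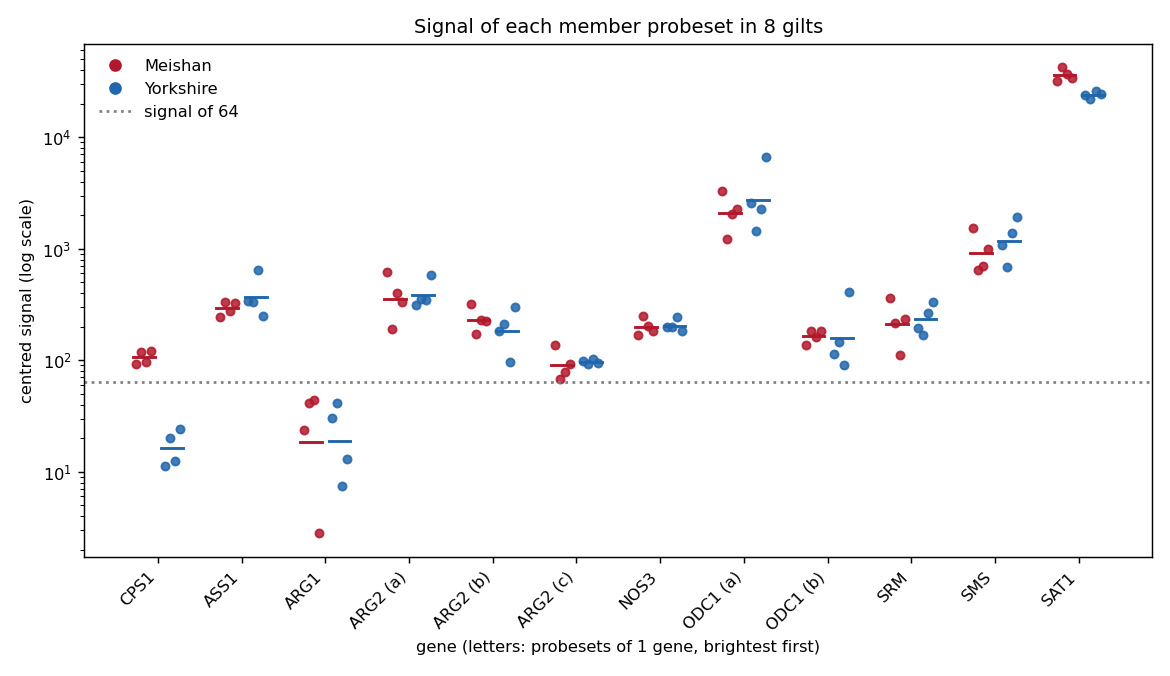
Centred signal on a log axis of the 12 member probesets in each gilt (points; Meishan red, Yorkshire blue), with the geometric mean of 4 gilts per breed as a bar and the signal of 64 as a dotted line. Letters mark probesets of 1 gene from the brightest. The points of the breeds separate for CPS1 and SAT1 and overlap for the other 10 probesets.

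CPS1, the mitochondrial enzyme that makes carbamoyl phosphate for the urea cycle, read 92.9, 118, 96.0 and 121 in the Meishan gilts. The Yorkshire gilts read 11.2, 20.2, 12.6 and 24.3. Every Meishan gilt thus lay above the level of 64 and every Yorkshire gilt below it, with no overlap and a range within Meishan of 1.31-fold. The log2 difference was 2.71 toward Meishan (SE 0.28, 95% interval 2.06 to 3.37, limma adjusted p = 0.0176), rank 14 by p among all probesets. Since the Yorkshire signals are near background, the size depends on how low values are treated, and it was 1.73 with signals below 32 set to 32 (limma adjusted p = 0.00241). Probesets of like brightness, 1363 with a mean within 0.25 on the log2 scale, had a median log2 difference of 0.22 toward Meishan, and 13 of them (0.954%) were called. A difference of at least this size in either direction was held by 14 others of these. With quantile normalization, which evens out the lean by brightness, the log2 difference of CPS1 was 2.53 (limma adjusted p = 0.0224). It was called without any 1 gilt (log2 difference 2.53 to 2.91, limma adjusted p = 0.0181 to 0.0642) and lost its call with the replicate number as a block (limma adjusted p = 0.124). CPS1 is best known from liver and intestine. Of 4 liver markers, 1 lay toward Meishan and 3 toward Yorkshire. ALB stayed below 64 in all 8 gilts, with 60.8 as its highest signal. APOA2 and TTR were below 64 in all gilts except Yorkshire gilt 1, where they read 168 and 72.1. APOA1 read 5133 to 7943 in the Meishan gilts and 7629 to 10327 in the Yorkshire gilts. Only this 1 of the 4 reached 64 in at least 2 gilts of each breed, so the directions of the others are those of dim signals. The part of these markers in the level of CPS1 was not tested.

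ASS1, which joins citrulline and aspartate on the way to arginine, did not pass the test. Its signals were 243, 333, 274 and 326 in the Meishan gilts, and the Yorkshire gilts had 338, 335, 643 and 248. The breeds overlapped, and Yorkshire gilt 3 lay well above the other 7 gilts. The log2 difference was 0.33 toward Yorkshire (SE 0.30, limma adjusted p = 0.661), with a 95% interval from 1.02 toward Yorkshire to 0.37 toward Meishan. Without Yorkshire gilt 3 it was 0.057 toward Yorkshire.

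Neither arginase differed between the breeds beyond the spread among gilts. ARG1, the liver form, was below 64 in all 8 gilts, at 2.81 to 43.6 in Meishan gilts and 7.49 to 41.6 in Yorkshire gilts. No direction or fold is therefore read from it. ARG2 was measured by 3 probesets that reached 64 in every gilt. At the brightest, its signals were 620, 190, 399 and 330 in the Meishan gilts, and the Yorkshire gilts had 313, 355, 349 and 580. Meishan gilt 1 and Yorkshire gilt 4 were the highest of their breeds, and Meishan gilt 2 was the lowest of all. The log2 difference of this probeset was 0.13 toward Yorkshire (SE 0.38, limma adjusted p = 0.900, 95% interval 1.00 toward Yorkshire to 0.73 toward Meishan), and it lay toward Meishan by 0.16 without Meishan gilt 2 and by 0.060 without Yorkshire gilt 4. The middle probeset had means of 230 in Meishan and 182 in Yorkshire, with a log2 difference of 0.34 toward Meishan (limma adjusted p = 0.712). The dimmest had means of 90.5 in Meishan and 97.2 in Yorkshire, with 0.10 toward Yorkshire (limma adjusted p = 0.877), which turned to 0.040 toward Meishan without Meishan gilt 2. The middle probeset lay 0.029 toward Meishan without Yorkshire gilt 3. The probesets of ARG2 thus did not share a direction over all gilts, while without Meishan gilt 2 all 3 lay toward Meishan, the middle one by 0.48. Over the 8 gilts their pairwise Pearson correlations were 0.74, 0.60 and 0.26, with the highest between the brightest and the dimmest.

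NOS3, the nitric oxide synthase of blood vessel endothelium, was among the steadiest members. Its signals were 168, 251, 204 and 183 in the Meishan gilts, and the Yorkshire gilts had 199, 198, 243 and 182. The breeds overlapped over nearly their whole range. The log2 difference was 0.034 toward Yorkshire (SE 0.19, limma adjusted p = 0.953), and the 95% interval, from 0.48 toward Yorkshire to 0.41 toward Meishan, bounds the difference that 4 gilts a breed allow. The direction turned when Meishan gilt 1, Meishan gilt 4 or Yorkshire gilt 3 was left out (at most 0.049 toward Meishan) and with no further scaling (0.028 toward Meishan). None of 4 endothelial markers was called, and 1 had an unadjusted limma p under 0.05. The summed signal of PECAM1, CDH5, VWF and TEK lay between 4731 and 4859 in Meishan and between 5060 and 6724 in Yorkshire, with CDH5, the cadherin of endothelial junctions, at a log2 difference of 0.58 toward Yorkshire (limma adjusted p = 0.185). VWF and TEK had 0.53 and 0.32 toward Yorkshire and PECAM1 0.11 toward Meishan. Their part in the level of NOS3 was not tested.

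Enzymes of polyamine synthesis varied more among gilts of a breed than between the breeds. ODC1, the first and rate-setting enzyme, had signals at its brighter probeset of 3283, 1222, 2045 and 2293 in the Meishan gilts, and the Yorkshire gilts had 2546, 1452, 2271 and 6665. Yorkshire gilt 4 stood far above the gilts of either breed, and the others overlapped. The range within Yorkshire was 4.59-fold, and the within-breed standard deviation was at the 97.0th percentile of probesets of like brightness. The log2 difference was 0.39 toward Yorkshire (SE 0.49, limma adjusted p = 0.755), with a 95% interval from 1.53 toward Yorkshire to 0.74 toward Meishan, and it was 0.035 toward Meishan without Yorkshire gilt 4. At the dimmer ODC1 probeset, the Meishan mean was 165 and the Yorkshire mean 157 (log2 difference 0.076 toward Meishan, limma adjusted p = 0.954). Yorkshire gilt 4 was again the highest there, at 405, and without Yorkshire gilt 1 or 3 the difference lay toward Yorkshire, by 0.076 and 0.19.

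SRM, spermidine synthase, had signals of 361, 217, 111 and 234 in the Meishan gilts, and the Yorkshire gilts had 195, 170, 266 and 331. Meishan held both the highest and the lowest gilt. Its log2 difference was 0.13 toward Yorkshire (SE 0.38, limma adjusted p = 0.907, 95% interval 1.01 toward Yorkshire to 0.75 toward Meishan), and it turned toward Meishan without Meishan gilt 3 (0.18) or Yorkshire gilt 4 (0.041). SMS, spermine synthase, had signals of 1523, 645, 693 and 991 in the Meishan gilts, and the Yorkshire gilts had 1069, 690, 1374 and 1934. The breeds overlapped, with Yorkshire gilt 4 again the highest. The log2 difference of SMS was 0.38 toward Yorkshire (SE 0.39, limma adjusted p = 0.695, 95% interval 1.29 toward Yorkshire to 0.52 toward Meishan), and it was 0.15 toward Yorkshire without Yorkshire gilt 4.

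SAT1, the enzyme that acetylates spermidine and spermine, was by far the brightest member and ranked 13 in mean signal among all probesets. Its signals were 31811, 42378, 37169 and 34090 in the Meishan gilts, and the Yorkshire gilts had 23960, 21834, 25852 and 24296. All 4 Meishan gilts lay above all 4 Yorkshire gilts, and within a breed the range was 1.33-fold in Meishan and 1.18-fold in Yorkshire. The log2 difference was 0.59 toward Meishan (SE 0.17, 95% interval 0.21 to 0.98), a fold of 1.51, with an unadjusted limma p of 0.00757 and an adjusted p of 0.181, so it was not called. The very brightest probesets also lay toward Meishan, although the brightest of the 10 equal groups by signal had a median log2 difference of 0.036 toward Yorkshire. All of the 50 brightest probesets lay toward Meishan, with a median log2 difference of 0.49, 43 of them without overlap between the breeds, and 13, SAT1 included, had a difference at least as large as that of SAT1. Quantile normalization gives every array the same set of values, so a small median among the brightest probesets was largely set in advance. With it, the median of these 50 was 0.0065, and the log2 difference of SAT1 was 0.072 toward Meishan (limma adjusted p = 0.859). With cyclic loess normalization they were 0.30 and 0.39 (limma adjusted p = 0.362 for SAT1). SAT1 was called with signals below 32 set to 32, a setting that leaves its own values untouched (limma adjusted p = 0.0557). None of 4 stromal markers was called, and 1 had an unadjusted limma p under 0.05. The summed signal of VIM, DCN, LUM and COL1A2 lay between 56440 and 60627 in Meishan and between 44528 and 52989 in Yorkshire, with VIM, an intermediate filament protein, at a log2 difference of 0.47 toward Meishan (limma adjusted p = 0.245). DCN had 0.27, COL1A2 0.24 and LUM 0.072 toward Meishan. VIM and DCN were the brightest of the 4, at the 99.8th and 99.6th percentiles of signal. Of the 100 brightest probesets, 99 lay toward Meishan. The part of the stromal markers in the difference of SAT1 was not tested.

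**Figure D2:**
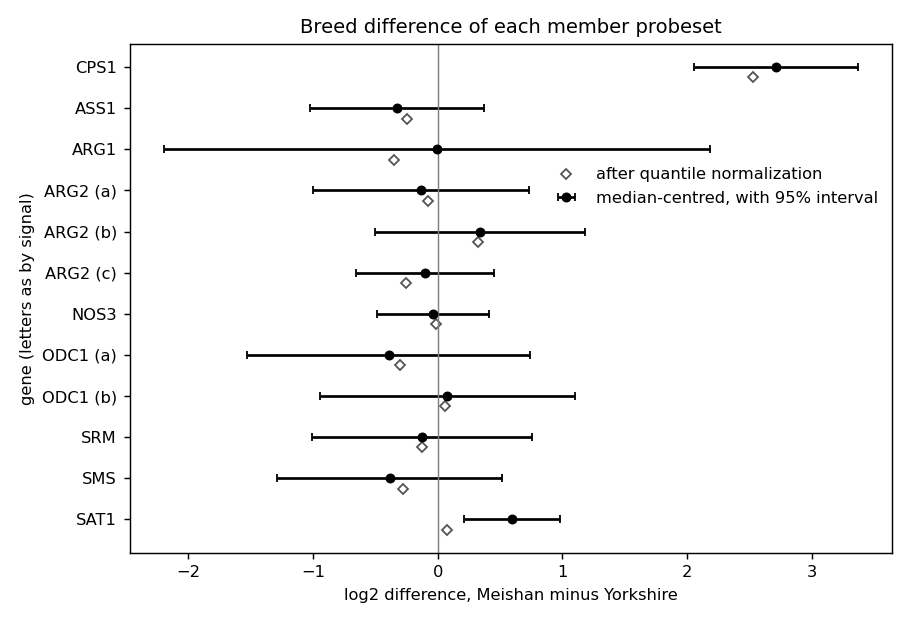
Log2 difference (Meishan minus Yorkshire) of the 12 member probesets from median-centred signals (black, with the 95% interval from limma, 4 gilts per breed) and after quantile normalization (open diamonds). The interval of CPS1 runs from 2.06 to 3.37 and that of SAT1 from 0.21 to 0.98, the other 10 include 0, and SAT1 lies at 0.072 after quantile normalization while CPS1 stays at 2.53.

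ODC1, at its brighter probeset, and SMS varied together from gilt to gilt. For 6 genes above the level of 64 whose breeds overlapped (ODC1, SRM, SMS, ARG2, ASS1 and NOS3, each at its brightest probeset), 15 pairs were correlated on the log2 scale over the 8 gilts, a comparison chosen after the values had been seen. Between ODC1 and SMS, Pearson's r was 0.90 (exact permutation test, two-sided, p = 0.000372, adjusted over the 15 pairs p = 0.00558) and Spearman's rho was 0.93 (exact permutation p = 0.00223, adjusted p = 0.0335). Without Meishan gilt 2 and Yorkshire gilt 4, the farthest from the median in ODC1, r was 0.82, and for deviations from the breed means it was 0.89. Of all probesets on the array, 0.375%, SMS included, had a positive correlation with ODC1 at least as high as that of SMS. Negative correlations were not counted. The 2 probesets of ODC1 correlated with each other at a Pearson's r of 0.54 over the 8 gilts. The dimmer one was not correlated with SMS here, so the result holds for the brighter one only. The next pairs were SRM with SMS (r = 0.81), ODC1 with ARG2 (r = 0.80) and ARG2 with NOS3 (r = -0.78), each at an adjusted p of 0.0821 in the exact permutation test. Their Spearman's rho was 0.76, 0.52 and -0.69 (exact permutation p = 0.0368, 0.197 and 0.0694, adjusted p = 0.178, 0.268 and 0.178). Without the 2 gilts farthest from the median in the first gene of the pair, r was 0.85 for SRM with SMS, 0.55 for ODC1 with ARG2 and -0.36 for ARG2 with NOS3. Without Meishan gilt 1 and Yorkshire gilt 4, r was 0.78 for ODC1 with SMS, 0.63 for SRM with SMS, 0.62 for ODC1 with ARG2 and -0.58 for ARG2 with NOS3. No other pair came below an adjusted p of 0.10 by either measure.

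Meishan gilt 1 and Yorkshire gilt 4 were both the highest of their breed for 5 of the 12 member probesets, namely the brighter one of ODC1, those of SRM and SMS and the 2 brighter of ARG2. The same held for 3364 of all 23999 probesets. Among the marker lists it held for 5 of 5 epithelial markers, 2 of 3 smooth muscle markers (ACTA2 and CNN1), 2 of 4 endometrial markers (PGR and SPP1) and 1 of 2 red blood cell markers (HBB), and for none of the markers measured in the other 6 lists. The summed signal of the epithelial markers EPCAM, CDH1, KRT8, KRT18 and KRT19 was 35571, 21595, 30285 and 27506 in the Meishan gilts, and the Yorkshire gilts had 27378, 23159, 29035 and 36227. That of the smooth muscle markers DES, ACTA2 and CNN1 was 16559 in Meishan gilt 1 and 16113 in Yorkshire gilt 4, against 6534 to 15742 in the other 6 gilts. S100A9, a calcium-binding protein of neutrophils and myeloid cells, was lowest in these same gilts (6371 in Meishan gilt 1 and 7924 in Yorkshire gilt 4), but S100A8 and S100A12 were not, and S100A12 was highest of the Yorkshire gilts in gilt 4. The part of any of these markers in the levels of ODC1, SRM, SMS and ARG2 was not tested.

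**Figure D3:**
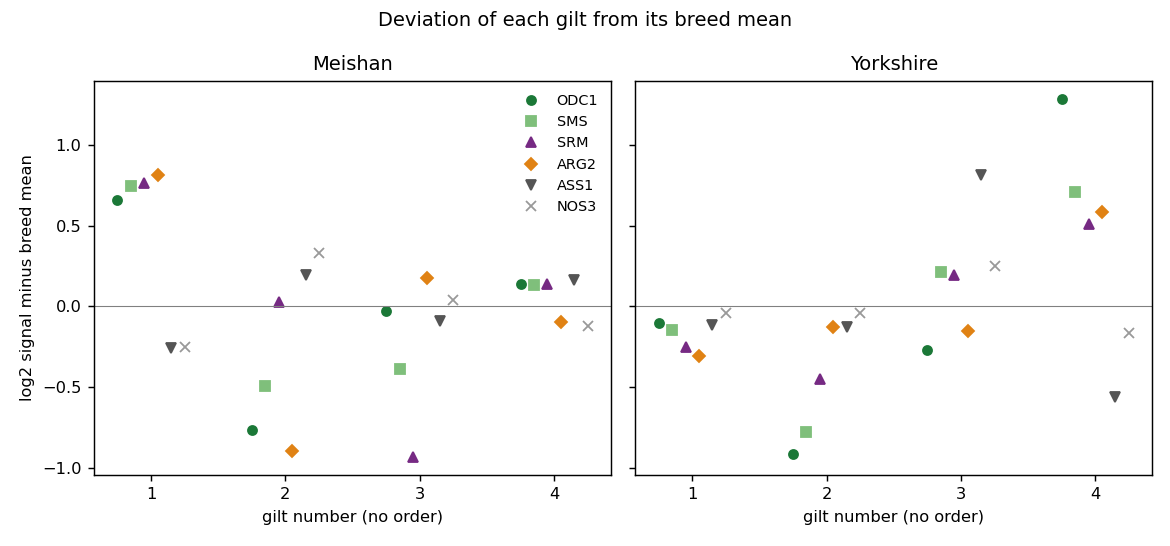
Log2 signal of each gilt minus the mean of its breed for 6 members at their brightest probeset, with Meishan in the left panel and Yorkshire in the right one. Gilt numbers are names and have no order. ODC1, SMS, SRM and ARG2 are all above the breed mean in Meishan gilt 1 and in Yorkshire gilt 4, where ASS1 and NOS3 are below it.

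Other genes of the same pathways were taken from 6 lists, each gene at its brightest probeset. Of 68 listed genes, 37 were measured and none was called, and none was under any of the alternatives run. An unadjusted limma p under 0.05 was reached by 6 of them (16.2%, beside 14.8% of all probesets), 24 lay toward Meishan and 13 toward Yorkshire, and the median log2 difference was 0.11 toward Meishan, against 0.021 over the array. Of the genes of the urea cycle and of entry into ornithine, 4 lay toward each breed and none reached an unadjusted p under 0.05. The lowest p there was that of ALDH4A1, a mitochondrial enzyme of proline breakdown, with a Meishan mean of 300.4 and a Yorkshire mean of 229 (log2 difference 0.39 toward Meishan, limma adjusted p = 0.587). ALDH18A1, which makes the precursor of ornithine and proline, AGMAT, which turns agmatine into putrescine, and PYCR1, of proline synthesis, followed with log2 differences of 0.34 toward Yorkshire, 0.34 toward Yorkshire and 0.34 toward Meishan.

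Among 7 genes that control, break down or transport polyamines, 5 lay toward Meishan and 2 toward Yorkshire, with a median of 0.25 toward Meishan. These counts take SLC3A1 at its brighter probeset, and the median was 0.18 without SLC3A1 (4 toward Meishan and 2 toward Yorkshire) and 0.11 with its other probeset (4 and 3), choices added after the values had been seen. Over all lists, 5 of 36 genes had an unadjusted limma p under 0.05 without SLC3A1. ATP13A2, a lysosomal polyamine exporter, had signals of 244, 291, 246 and 263 in the Meishan gilts, and the Yorkshire gilts had 238, 196, 158 and 175. The breeds did not overlap, and the log2 difference was 0.46 toward Meishan (SE 0.19, limma adjusted p = 0.310). The other ATP13A2 probesets, with means below 64, lay 0.019 toward Yorkshire and 0.83 toward Meishan. SLC3A1, a subunit of the cystine and basic amino acid transporter, had a Meishan mean of 848 and a Yorkshire mean of 528 at its brighter probeset (log2 difference 0.68 toward Meishan, limma adjusted p = 0.257). At its other probeset they were 379 in Meishan and 523 in Yorkshire (0.46 toward Yorkshire, limma adjusted p = 0.316), so the directions were opposed, and the supplementary list names the brighter one PREPL. SAT2, a relative of SAT1, had a log2 difference of 0.42 toward Yorkshire (limma adjusted p = 0.571). OAZ2, an antizyme that sends ODC1 to breakdown, had 0.28 toward Yorkshire at its brightest probeset and 0.43 toward Meishan at the other (limma adjusted p = 0.615 and 0.427).

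Of 7 genes of S-adenosylmethionine supply and salvage, 5 lay toward Meishan and 2 toward Yorkshire. MAT2B, the regulatory subunit of methionine adenosyltransferase, had a Meishan mean of 7495 and a Yorkshire mean of 4526 at its brightest probeset (log2 difference 0.73 toward Meishan, SE 0.28, limma adjusted p = 0.288). The next MAT2B probeset, at 3749 in Meishan and 3472 in Yorkshire, had 0.11 toward Meishan, and a dim one, below 64 in both means, had 0.69 toward Yorkshire. MRI1 of the methionine salvage pathway, AHCY, which removes S-adenosylhomocysteine, and MAT1A, the liver form of methionine adenosyltransferase, had log2 differences toward Meishan of 0.32, 0.44 and 1.27 (limma adjusted p = 0.529, 0.571 and 0.507). The other AHCY probeset, at 150.5 in Meishan and 98.8 in Yorkshire, had no overlap and lay 0.61 toward Meishan (SE 0.18, limma adjusted p = 0.199). The means of MAT1A were below 64 in both breeds. MRI1 at its other probeset had 0.053 toward Yorkshire (limma adjusted p = 0.958). DHPS, which uses spermidine to build the amino acid hypusine, had signals of 381, 380, 329 and 459 in the Meishan gilts, and the Yorkshire gilts had 235, 251, 289 and 306. Every Meishan gilt lay above every Yorkshire gilt (log2 difference 0.52 toward Meishan, SE 0.18, limma adjusted p = 0.252). EIF5A, the translation factor that carries hypusine, had means of 4497 in Meishan and 3290 in Yorkshire at its brighter probeset, also without overlap (0.45 toward Meishan, limma adjusted p = 0.343). Its other probeset lay the opposite way, at 771 in Meishan and 1219 in Yorkshire (0.66 toward Yorkshire, limma adjusted p = 0.339).

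Of 9 genes of nitric oxide synthesis and response, 6 lay toward Meishan and 3 toward Yorkshire. Of these 6, QDPR, which recycles tetrahydrobiopterin, and CAV1, a protein of caveolae that binds NOS3, had 0.042 and 0.11 toward Meishan at their brightest probeset. Another probeset of each lay toward Yorkshire, by 0.59 for QDPR and 0.79 for CAV1 (limma adjusted p = 0.254 and 0.316), both named after their values had been seen. At the remaining CAV1 probeset the log2 difference was 0.34 toward Meishan (limma adjusted p = 0.653). GUCY1B3 of the same list, also named after its values had been seen, lay toward Meishan by 0.25 at its brightest probeset and by 0.80 at another (limma adjusted p = 0.613 and 0.317). PTS and SPR, both enzymes that make tetrahydrobiopterin, the cofactor of nitric oxide synthases, did not overlap between the breeds. PTS had signals of 2170, 1485, 1886 and 1695 in the Meishan gilts, and the Yorkshire gilts had 2357, 2482, 2301 and 2659. Its log2 difference was 0.45 toward Yorkshire (SE 0.18, limma adjusted p = 0.301). SPR had means of 512 in Meishan and 690 in Yorkshire (0.43 toward Yorkshire, SE 0.18, limma adjusted p = 0.316). DDAH1, which clears methylated arginines that block the synthases, had a log2 difference of 0.52 toward Yorkshire (limma adjusted p = 0.499). NOS2, the inducible synthase, had 0.73 toward Meishan at signals near 64 (limma adjusted p = 0.501). Its highest signal was 178 in Meishan gilt 2, against 56.2 to 69.4 in the other Meishan gilts. A second NOS2 probeset, with both means below 64, differed by only 0.018 toward Yorkshire (limma adjusted p = 0.982). Of 4 transporters of basic amino acids, SLC7A1, the main carrier of arginine into cells, had means of 997 in Meishan and 1412 in Yorkshire (0.50 toward Yorkshire, limma adjusted p = 0.554), and SLC7A9, the partner of SLC3A1, 1095 in Meishan and 670 in Yorkshire (0.71 toward Meishan, limma adjusted p = 0.635). SLC7A7 and SLC3A2, which form another such carrier, had log2 differences of 0.014 toward Yorkshire and 0.018 toward Meishan.

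**Figure D4:**
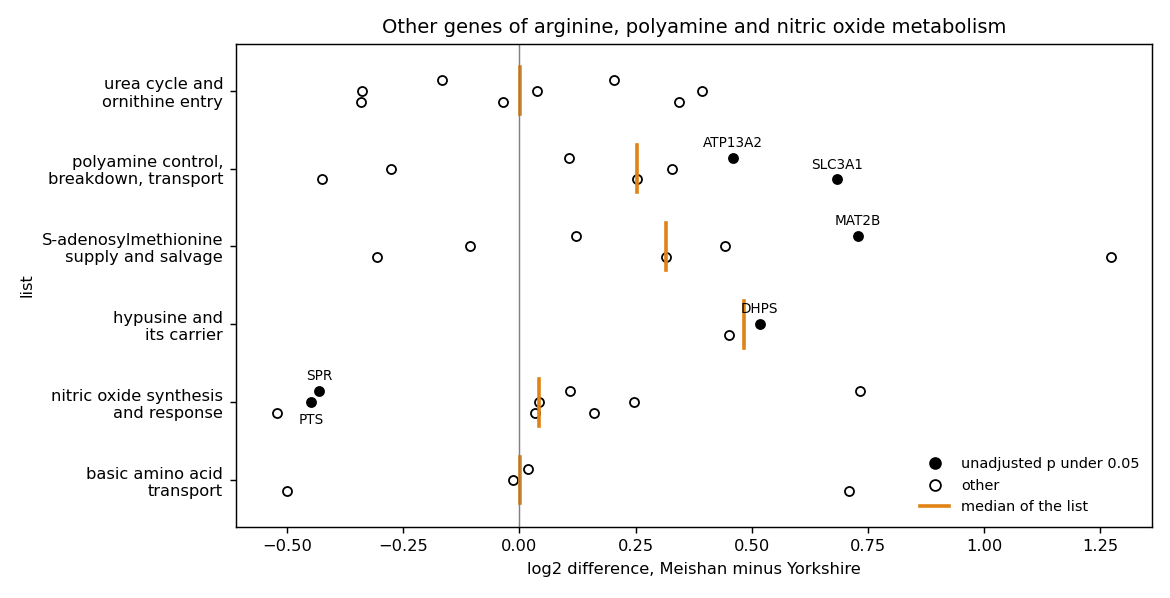
Log2 difference (Meishan minus Yorkshire) of the 37 measured genes in 6 lists, each at its brightest probeset (points), with filled points and names for the 6 genes at an unadjusted limma p under 0.05 and an orange bar at the median of each list. ATP13A2, SLC3A1, MAT2B and DHPS lie toward Meishan and PTS and SPR toward Yorkshire, and no gene was called after adjustment over the array.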

How the data were processed

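Endometrial RNA of 8 gilts on day 12 of gestation was measured on 8 Affymetrix Porcine Genome arrays. The authors converted scanner images with GCOS 1.2, and the deposited intensities are linear signals already scaled to a common trimmed mean; the methods then took natural logs and fitted a mixed model in SAS with q-values, which was not repeated here. Control probesets (124) were left out. With R 4.3.3 and limma 3.58.1, log2 signals were centred on the median of each array, breeds were compared by lmFit and eBayes with 2.09 prior degrees of freedom, and p-values were adjusted by Benjamini-Hochberg over 23999 probesets. The procedure was tested on simulated data. The annotation gave 1 symbol to 10069 probesets. Groups and gilt numbers came from the sample titles. Members and gene lists were chosen with earlier results of these data known. Named in the text are all member probesets and, from each list, up to 4 genes with the lowest p. QDPR, CAV1 and GUCY1B3 were added after the values had been seen. Markers are given by group. Alternatives were other scalings, a filter (mean log2 signal of at least 6) and a floor (32) on dim signals, an intensity trend, no moderation, array weights, Storey q-values, an adjusted p under 0.05, a replicate block, each gilt left out, all probesets of a gene averaged, and other detection levels (32 and 128). No probe, promoter or protein sequence was used here.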

Additional observations from a re-analysis of the deposited data

How the results depend on the processing

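CPS1 was the 1 member probeset called in all settings but 3. The count was 2 with a floor of 32 on signals (SAT1 in addition), 0 with probesets of a mean log2 signal of at least 6, because CPS1 is dimmer than that, and 0 under a replicate block, where CPS1 kept its log2 difference of 2.71 but had a limma adjusted p of 0.124. The sample titles name no pairing. Deviations from the breed means correlated at -0.056, 0.089, 0.0010 and 0.041 between gilts of one number, which cannot settle whether gilts were handled in pairs. By these correlations the gilts numbered 2 were each other's closest match in the other breed. Yorkshire gilt 4 was the closest to Meishan gilt 4 but not the reverse, and for numbers 1 and 3 it held in neither direction. Under the block 0 probesets of the array were called, and 3327 reached an unadjusted p under 0.05, against 218 and 3540 without it. Over the array the count was 668 with that filter, 863 with the floor, 626 with an intensity trend, 497 with array weights, 532 with Storey q-values, 60 at an adjusted p under 0.05 and 72 to 205 when 1 gilt was left out. Among uncalled members, the log2 difference (Meishan minus Yorkshire) changed sign for ARG1 with no further scaling (0.057) and with the floor (0.11), and for NOS3 with no further scaling (0.028). ARG1 was below 64 in every gilt, so its values here show only how unsteady dim signals are. When 1 gilt was left out it ran from -0.45 to 0.90 for ARG1, -0.14 to 0.049 for NOS3, -0.70 to 0.035 and -0.19 to 0.53 for the brighter and dimmer probesets of ODC1, -0.38 to 0.18 for SRM, and -0.41 to 0.16 and -0.31 to 0.040 for the brightest and dimmest of ARG2. The number of genes at the detection level was 7 at each of the 3 levels, and the list genes called were 0 throughout. The cause of these changes was not tested beyond what each setting alters.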
